A study of Mus musculus with 2 samples.

Results

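The 10 genes described here are the IL-1 family ligands Il1a, Il1b, Il18 and Il33, the receptor chains Il1r1 and Il1rap, the decoy receptor Il1r2, the receptor antagonist Il1rn, the IL-18 binding protein Il18bp and the inflammasome sensor Nlrp3. They were chosen by name, and every array probe whose RefSeq transcript belongs to one of them was used, which gave 12 probes for 10 genes among the 20656 genes named on the array. RNA came from bone marrow-derived macrophages (BMDMs) of 8-week-old male mice carrying the floxed Crif1 allele (Crif1 f/f), grown with M-CSF. The array methods name no Cre transgene for these mice. One sample was left untreated and one was given IL-4, both labelled as 18 h. Each was read on 1 Agilent array in a single colour (Cy3), so there were 2 arrays in all and no replicate in either group, and the dose of IL-4 on these samples was not given in the sources used here. With 1 array per condition no test was run and no p-value is given.

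IL-1α and IL-1β act on the same receptor, IL1R1, which recruits the accessory chain IL1RAP to signal through MYD88 and IRAK kinases to NF-κB. The pathway is held back by IL1RN, which occupies IL1R1 without signalling, and by IL1R2, which binds IL-1 but lacks the signalling domain. Pro-IL-1β and pro-IL-18 are cut to their active forms by caspase-1 after an inflammasome such as NLRP3 assembles, IL18BP captures free IL-18, and IL-33 is an alarmin of barrier and stromal cells that signals through ST2 (Il1rl1) with the same accessory chain. In macrophages IL-4 signals through STAT6.

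Intensity is the background-subtracted spot signal in arbitrary units, given here before scaling. Each log2 difference is IL-4 minus untreated after scaling each array to its own 75th percentile. A probe was read as measured where the scanner software marked it as well above background, and the lowest such signal was 29.2 for untreated and 27.9 for IL-4-treated cells. Of the spots for genes, 59.8% and 57.4% carried that mark. The 4 genes set to check the IL-4 label, Arg1, Retnla, Chil3 and Mrc1, were all higher after IL-4, by 5.33-fold or more. All 6 macrophage markers with a probe were well above background on both arrays, with a median log2 difference of -0.71 and 4 of 6 lower. With the median over probes the median of these markers was -0.49. Csf1r and Adgre1 had 0.09 and 0.17 at their brightest probes, and Lyz2 was 1.63-fold lower. Itgam was 1.63-fold lower at its brightest probe and had log2 differences of -0.24 and -0.27 at its others. Cd14 was 2.68-fold lower, and Mertk was 2.20-fold lower but under 2-fold with median or spike-in scaling. Fibroblast and endothelial markers were also present. All 7 of the listed stromal genes were well above background on both arrays, led by Col1a2 at 233342 untreated and 234332 after IL-4. This was above the brightest macrophage marker, Csf1r, at 146026 untreated and 166510 after IL-4.

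In the IL-4 sample the signal was higher for Il1r1 and for the brighter of the 2 Il1rap probes. Of these, Il1rap was dim when untreated and was under 2-fold with another background correction. The ligands, the antagonist, the IL-18 binding protein and Nlrp3 that could be measured were lower or little changed. Il1r1 and Il1rap were the 2 of 7 measured genes that were at least 2-fold higher, and 0 of 7 were at least 2-fold lower. As a background, 3.06% of the 14073 genes detected on either array passed 2-fold upward and 3.35% passed it downward. Il1a, Il33 and Il1r2 lay in the background on both arrays and have no fold. Over the 7 measured genes the median log2 difference was -0.29 and 5 were lower, beside a median of -0.01 and 52.3% lower among the 12744 genes measured on both arrays.

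**Figure D1:**
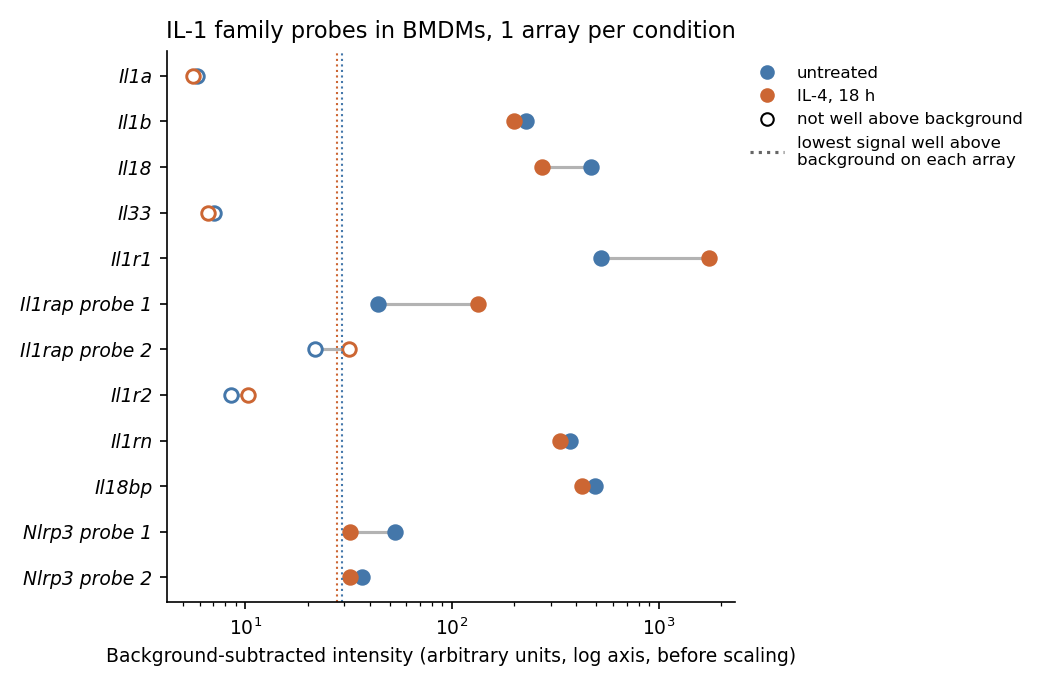
Background-subtracted intensity of each of the 12 probes (x axis, arbitrary units on a log axis, before scaling) for untreated BMDMs (blue) and BMDMs given IL-4 (orange). Open circles were not well above background, and dotted lines mark the lowest signal well above background on each array. Il1r1 and the first Il1rap probe lie to the right after IL-4, and Il1a, Il33 and Il1r2 lie below both lines.

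Il1r1, the chain that binds IL-1, had an intensity of 528 in untreated BMDMs and 1764 after IL-4. The scaled log2 difference was 1.64, a 3.12-fold higher signal. The scanner software's error for its single spot, combined over both arrays, was 0.21 on the log2 scale. Probes of similar signal printed in 10 spots had a median SD of 0.060 for the same difference between spots. Both errors cover the reading of the array and not the spread between cultures. Only 92 of the 12744 genes measured on both arrays, or 0.722%, had a larger difference. Il1r1 is also a receptor of fibroblasts and endothelium, so the stromal markers are set beside it. The summed scaled level of the 7 stromal genes after IL-4 was 0.907 times that of untreated cells. Most of this sum came from Col1a2 and Col1a1, at -0.09 and -0.34. By gene, 3 were higher and 4 lower, from -0.47 for Pdgfrb to 0.51 for Pdgfra and 0.61 for Pecam1. Whether such cells contributed to the Il1r1 signal was not tested. In bulk RNA, fewer cells of a type and less RNA per cell cannot be told apart.

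Il1rap, the accessory chain shared by the IL-1 and IL-33 receptors, was read by 2 probes annotated to different RefSeq transcripts. The brighter probe had an intensity of 43.8 untreated and 134 after IL-4, and its scaled log2 difference of 1.51 is a 2.84-fold higher signal. The combined software error was 0.32 on the log2 scale, larger than for Il1r1, and the untreated signal lay near the lowest signal read as measured. The size of this difference was smaller under another treatment of the background. With normexp correction and an added offset of 50, which starts from the spot's median pixel intensity of 104 untreated and 191 after IL-4 and its local background of 22 and 25, the log2 difference was 0.57 and no longer reached 2-fold. The second probe, at 21.7 untreated and 31.7 after IL-4, lay in the background on both arrays and gives no fold. Which transcript form of Il1rap each probe detects could not be checked, because no probe sequences were available.

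Il1r2, the decoy receptor, had an intensity of 8.51 untreated and 10.3 after IL-4. Both values were not well above background, and the software error was 76.8% and 60.5% of the signal. A change in the decoy could therefore not be read at this signal.

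**Figure D2:**
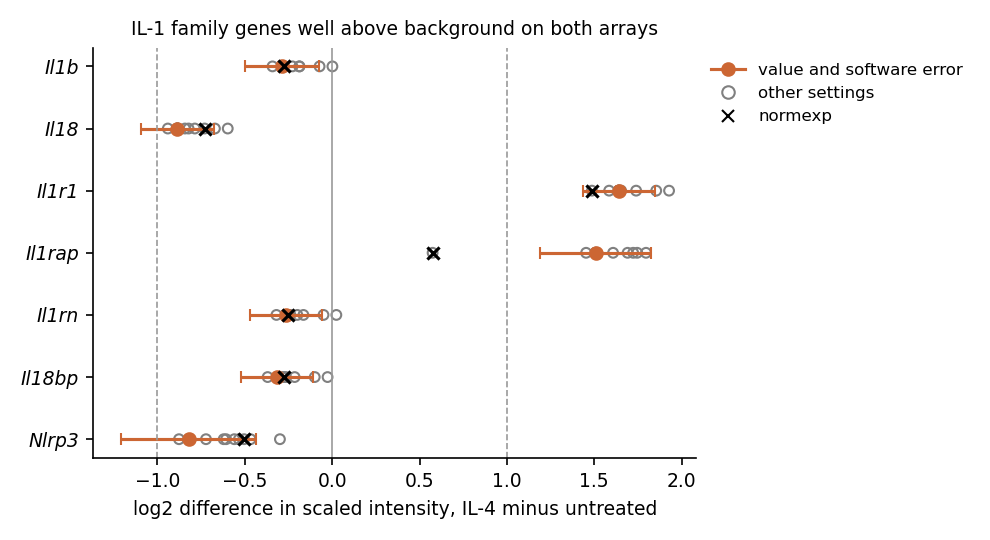
Log2 difference in scaled intensity (x axis, IL-4 minus untreated) of the 7 genes measured on both arrays. Filled circles with bars give the reported value and the combined software error, open circles the value under the other settings, crosses the value with normexp, and dashed lines mark 2-fold. Il1r1 stays beyond 2-fold in every setting, Il1rap does so except with normexp, and Il1b, Il1rn and Il18bp reach 0.00, 0.02 and -0.03 with spike-in scaling.

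The promoters of the 2 receptor genes that were at least 2-fold higher are shown so that the STAT sites can be compared. Beside them are a window of Il18 and a window of Il1rn, which did not pass 2-fold. Both of these windows hold a STAT6 match. Each run is the 250 bases before a RefSeq transcript start, on the plus strand of GRCm38.p6, with motif matches in capitals. The motifs searched on both strands were a STAT6 site (TTC and GAA with any 4 bases between), the shorter STAT site TTCNNNGAA, an NF-κB site (GGGA and TTCC with any 2 bases between), the PU.1 site GAGGAAGT and the TATA box TATAAA. No match of one of these motifs overlapped a match of another in the windows of the 10 genes.
Il1r1, chr1:40224830-40225079: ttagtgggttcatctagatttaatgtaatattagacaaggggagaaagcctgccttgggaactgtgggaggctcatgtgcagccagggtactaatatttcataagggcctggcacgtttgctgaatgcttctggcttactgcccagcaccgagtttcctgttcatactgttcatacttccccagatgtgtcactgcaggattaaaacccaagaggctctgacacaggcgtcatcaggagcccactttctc
Il1r1, chr1:40266336-40266585: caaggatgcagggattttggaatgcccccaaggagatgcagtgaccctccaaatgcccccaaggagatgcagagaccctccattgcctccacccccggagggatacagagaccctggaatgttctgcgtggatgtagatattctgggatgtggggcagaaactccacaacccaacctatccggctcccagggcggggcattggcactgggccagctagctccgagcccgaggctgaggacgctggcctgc
Il1rap, chr16:26581455-26581704: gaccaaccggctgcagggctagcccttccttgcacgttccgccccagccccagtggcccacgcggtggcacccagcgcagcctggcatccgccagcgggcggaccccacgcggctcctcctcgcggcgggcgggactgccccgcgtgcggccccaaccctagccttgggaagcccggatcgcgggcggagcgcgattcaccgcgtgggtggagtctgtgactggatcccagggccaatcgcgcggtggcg
Il18, chr9:50554450-50554699: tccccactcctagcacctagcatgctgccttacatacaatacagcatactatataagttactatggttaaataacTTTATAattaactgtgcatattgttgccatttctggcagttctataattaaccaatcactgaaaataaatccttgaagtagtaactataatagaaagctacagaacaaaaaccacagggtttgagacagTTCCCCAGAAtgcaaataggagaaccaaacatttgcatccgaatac
Il1rn, chr2:24345041-24345290: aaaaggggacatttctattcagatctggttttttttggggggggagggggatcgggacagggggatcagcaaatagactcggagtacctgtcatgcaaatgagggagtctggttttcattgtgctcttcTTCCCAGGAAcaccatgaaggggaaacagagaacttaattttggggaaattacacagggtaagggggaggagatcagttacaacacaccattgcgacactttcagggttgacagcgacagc

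Neither window of Il1r1 nor the window of Il1rap held a match to any of these motifs. Il18 held the STAT6 match TTCCCCAGAA starting 46 bases before the transcript start, and Il1rn held TTCCCAGGAA starting 121 bases before it. Nlrp3 held TTCCTTTGAA and Il33 held TTCTGGGGAA. Il1rn, Nlrp3 and Il33 each also had a window without a STAT6 match. The windows of Il1b and Il18bp, whose differences were also negative, held no STAT match of either length. In all, 5 of the 15 windows of the 10 genes matched the STAT6 motif, beside 5.85% of all 32851 promoter windows. Of the 5, 2 are overlapping windows of Il1rn that share a single match. The shorter STAT site occurred in 7.02% of all windows and in that of Il1r2, and the NF-κB and PU.1 letters, in 1.21% and 2.44% of all windows, occurred in 0 of 15. The TATA box occurred at any position and on either strand in 12.4% of all windows and in 5 of the 15. It lay 32 and 31 bases before the starts of Il1a and Il1b and 29 bases before 1 start of Il33. Farther out, it lay 175 bases before the start of Il18 and 203 bases before the other start of Il33. The Il1rap window was the richest of the 15 in G and C, at 74.4% with 30 CpG, beside medians of 52.4% and 6 over all windows, and Il18 was the poorest at 35.6%. A match is a run of letters and not evidence of binding, and a window without one says nothing about sites elsewhere.

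Il1b, which encodes pro-IL-1β, was the 1 gene of the 10 with repeated spots, and its probe was printed in 10. Intensity ran from 214 to 237 with a median of 228 in untreated BMDMs, and from 191 to 223 with a median of 199 after IL-4. The spots overlapped between the arrays in 1 case, the highest IL-4 spot lying above the lowest untreated spot. After scaling, the log2 difference was -0.29, a 1.22-fold lower signal, with an SD of 0.091 between the 10 spots, and all 10 spots were lower. With spike-in scaling, which raised the median of all genes to 0.27, the difference of Il1b was 0.00. Il1a, the other IL-1 agonist, had 5.83 untreated and 5.57 after IL-4, with a software error of nearly the whole signal, and was not detected above background.

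**Figure D3:**
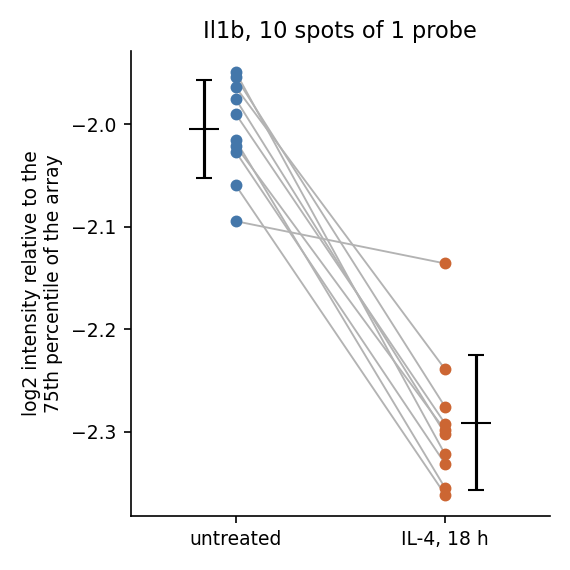
Log2 intensity relative to the 75th percentile of the array (y axis) in the 10 spots of the Il1b probe, with lines joining the same position on the untreated array (blue) and the IL-4 array (orange). Black bars give the mean and SD over spots of 1 array, which are not biological replicates. All 10 lines go down, though the mean difference becomes 0.00 with spike-in scaling.

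Il18, which macrophages hold as an inactive precursor, showed the largest decrease of the 7 genes. Intensity was 470 untreated and 273 after IL-4, and the scaled log2 difference was -0.89, a 1.85-fold lower signal. This is several times the combined software error of 0.21 and the SD of 0.074 between spots of similar probes, and 2.07% of the genes measured on both arrays had a lower difference. Il18 stayed lower under every setting run, between -0.94 and -0.60. Il33, mainly an alarmin of epithelial and stromal cells, had 7.08 untreated and 6.56 after IL-4 and was not well above background.

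The secreted inhibitors moved little. Il1rn, the receptor antagonist, had an intensity of 373 untreated and 333 after IL-4, and its scaled log2 difference was -0.26, or 0.02 with spike-in scaling. Il18bp, the soluble trap for IL-18, had 494 untreated and 426 after IL-4, and its scaled log2 difference was -0.31, or -0.03 with spike-in scaling. Spike-in scaling also raised the median of all genes to 0.27. The combined software error was 0.21 for each, and the SD between spots of similar probes was 0.075 for Il1rn and 0.066 for Il18bp. Of the genes measured on both arrays, 18.0% had a lower difference than Il1rn and 14.9% a lower one than Il18bp.

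Nlrp3, the sensor whose assembly activates caspase-1, was dim on both arrays and its 2 probes, annotated to the same transcript, differed in size. The brighter had an intensity of 52.7 untreated and 32.0 after IL-4, with a log2 difference of -0.82. The other had 36.7 and 32.0, with a difference of -0.30. The combined software errors were 0.39 and 0.41 on the log2 scale, so the difference of the second probe lay within the error of reading. Both IL-4 signals lay close to the lowest signal read as measured on that array, 27.9.

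**Figure D4:**
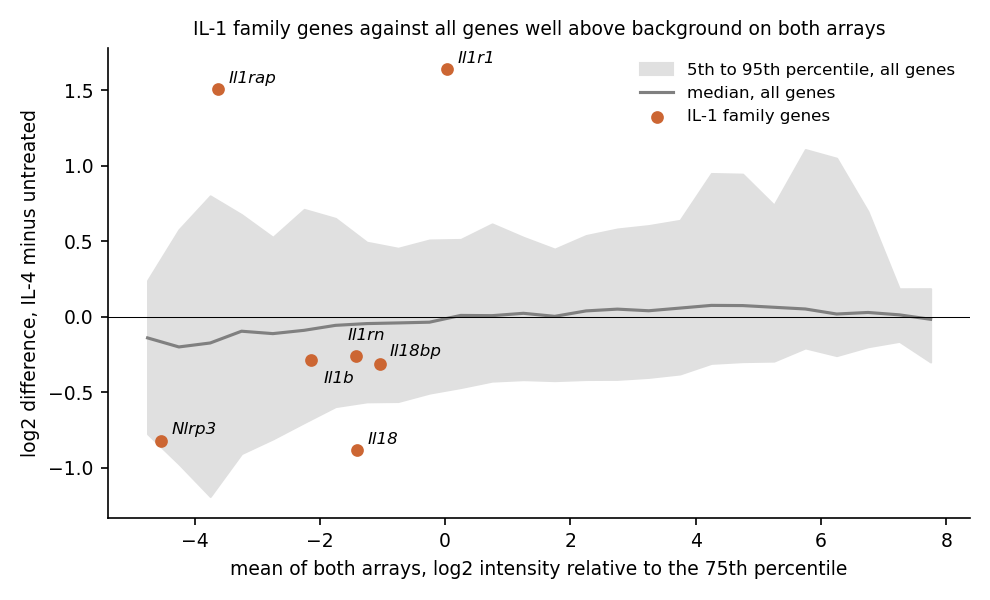
Log2 difference (y axis, IL-4 minus untreated) against the mean log2 intensity of both arrays relative to the 75th percentile (x axis) for the 7 measured IL-1 family genes (orange). The grey band spans the 5th to the 95th percentile and the grey line the median of all genes measured on both arrays, in bins of signal. Il1r1 and Il1rap lie above the band, Il18 below it and Nlrp3 at its lower edge, while Il1b, Il1rn and Il18bp lie inside it. With spike-in scaling Il1b, Il1rn and Il18bp move to 0.00, 0.02 and -0.03, and the median of all genes moves to 0.27.

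Il1r1 and Il1r2 are neighbours on chromosome 1, where RefSeq lists them in the order Il1r2, Il1r1, Il1rl2, Il1rl1, Il18r1 and Il18rap with no other protein-coding gene between. Within this row of receptor genes, Il1r1 and Il1rl1 both passed 2-fold upward. Il1rl1 encodes ST2, the receptor for IL-33, and its 3 probes all went up. The brightest had an intensity of 1654 untreated and 8883 after IL-4, a log2 difference of 2.33 or 5.01-fold. The second had 361 and 1372, with a difference of 1.83, and the dimmest was well above background only after IL-4, with a difference of at least 0.52. ST2 is also a marker of mast cells. Of the 6 mast cell and basophil genes 3 were measured on both arrays, from Mcpt8 at -0.74 to Gata2 at 0.35. Fcer1a and Ms4a2 were not well above background on either, and Cpa3, in the background after IL-4, was at least 3.51-fold lower. The summed scaled level of all 6, which includes these signals in the background, was 0.663 times that of untreated cells. Whether mast cells, basophils or the stromal cells described above contributed to the Il1rl1 signal was not tested. Which transcript form of Il1rl1 each probe detects could not be checked. Il1rl2, the IL-36 receptor, was well above background only after IL-4, at 31.4. Il18r1 and Il18rap, the chains of the IL-18 receptor, were not detected on either array. Il1a and Il1b are likewise neighbours, on chromosome 2.

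Of the 12 other ligands and receptors of the family, 11 had a probe and 3 were well above background on at least 1 array, of which only Il1rl1 passed 2-fold. Sigirr, a receptor that dampens IL-1 signalling, had 97.9 untreated and 87.0 after IL-4, a log2 difference of -0.27. The ligands Il36a, Il36b, Il36g and Il1f10 were not well above background.

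The signalling genes below the receptor were all measured, and most changed by less than 2-fold. All 19 were well above background on both arrays, 1 was at least 2-fold higher, 1 at least 2-fold lower, and the median log2 difference was -0.02, close to that of all genes. Chuk, a kinase of the IKK complex and the brightest of the list, had a difference of 0.16. Irak2 had -0.13 at its brighter probe and -0.69 at its dimmer one, and Tab1 had -0.02. Named after their values were seen, Tnfaip3, an enzyme that limits NF-κB signalling, had 0.68 and Irak3, a brake on IRAK signalling, had -0.65. The higher gene was Zc3h12a, an RNase that degrades cytokine transcripts, which went from 92.8 to 203, a difference of 1.03. The lower gene was Nfkbiz, a nuclear cofactor of NF-κB, which went from 245 to 128, a difference of -1.04. Both sit at the edge of 2-fold. Neither passed it with normexp, Nfkbiz also did not under 5 of the 6 other scaling settings, and Zc3h12a did not under 1 of them.

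Of the 22 inflammasome and processing genes, 21 had a probe and 20 were detected on either array. The 19 measured on both arrays had a median log2 difference of -0.01, with 1 gene at least 2-fold higher and 0 lower. With the median over probes or the dimmest probe the counts were 0 higher and 1 lower, and with quantile or spike-in scaling 2 were higher. Naip5, a sensor of bacterial flagellin and the brightest of the list, had 25932 untreated and 22851 after IL-4, a difference of -0.28, and Txnip had 0.06. Nlrp1a, another inflammasome sensor, had 1.15 at its brighter probe and -0.32 at its dimmer one, so its direction is uncertain. Both probes of its close paralog Nlrp1b were lower, at -0.83 and -1.64. Named for their role after their values were seen, Casp1, the protease that matures IL-1β and IL-18, had a difference of 0.06, and its adaptor Pycard had 0.57. Casp1 had an intensity of 5449 untreated and 6067 after IL-4, and Pycard 3887 and 6167.

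**Figure D5:**
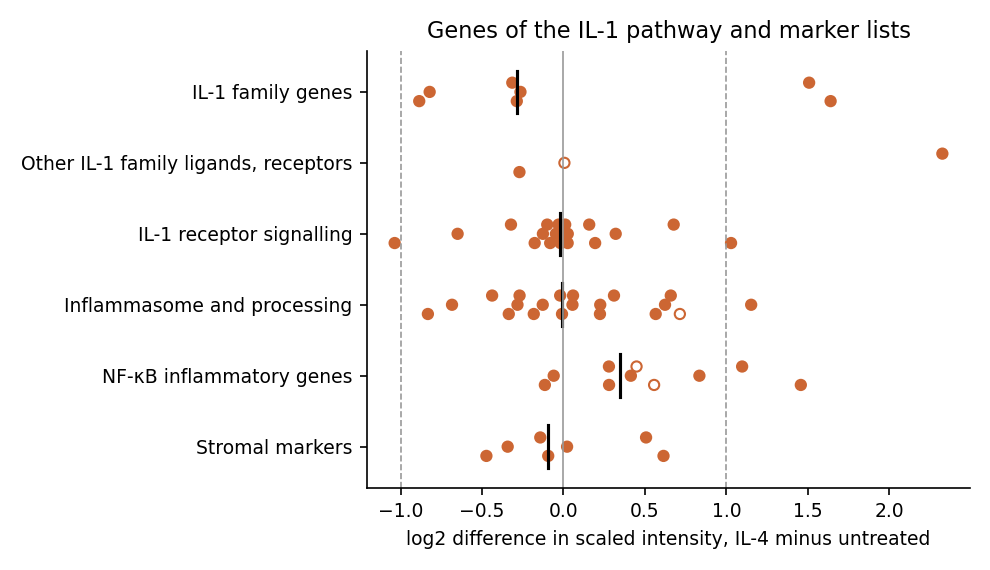
Log2 difference in scaled intensity (x axis, IL-4 minus untreated) of the genes in each list, one circle a gene read from its brightest probe. Filled circles were well above background on both arrays, open circles are bounds from 1 array, black bars are medians over the filled circles where there are at least 3, and dashed lines mark 2-fold. The signalling and inflammasome lists centre near 0, and Il1rl1 lies farthest to the right, at 2.33.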

How the data were processed

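The authors deposited the Feature Extraction 10.10.1.1 output of each array, with an intensity per spot that is background-subtracted and detrended without scaling to the other array. A second deposited file holds processed log2 values whose making is not given in the sources used here. The array design was annotated on mm9. Control spots and outlier spots were left out (0 for the genes described), log2 values of a probe's spots were averaged, and each array's 75th percentile was subtracted. Probes were named through RefSeq accessions of GRCm38.p6, which matched 27229 of 39424 probes to 1 symbol, and a gene was read from its brightest probe. A probe well above background on 1 array gave a bound. In the deposited log2 table, differences for the 12 probes equalled the unscaled scanner differences after a constant of -0.0990, beside a 75th percentile shift of 0.0996. Its column medians are 0.16 and 0.02, and the centring of its probes stays unknown. The genes and lists were chosen with earlier results of these data known. Named are the 10 genes, the check genes, and of each pathway list the genes past 2-fold and the 3 brightest. Counting was checked on simulated data with 4-fold changes and a noise SD of 0.1 on the log2 scale. That check did not cover smaller changes, larger noise or the rule for dim probes. Tools were limma 3.58.1 in R 4.3.3, with pandas 2.3.3 and numpy 2.4.6 in Python 3.11.15. Alternatives were other scalings, normexp (offset 50), filters, cutoffs and probe rules.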

Additional observations from a re-analysis of the deposited data

How the results depend on the processing

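With 1 array per condition nothing here measures the spread between cultures, and the signal over background limits what can be read of Il1a, Il33, Il1r2, Nlrp3 and Il1rap. No paired analysis was possible because untreated and IL-4 cells have a single array each. Matching probes by the gene name column was not run, since the scanner output used here has no such column. The genes at least 2-fold higher numbered 2 in the reported setting and 1 with normexp or a 3-fold cutoff, and those at least 2-fold lower numbered 0 and, at a 1.5-fold cutoff, 2. The cutoffs act by construction, and for normexp the cause was not tested. The median log2 difference of the 7 genes, -0.29 as reported, was -0.20 with cyclic loess, -0.072 with median scaling, -0.19 without scaling and 0.0017 with spike-in scaling. Median and spike-in scaling raise all genes together, moving their median from -0.01 to 0.20 and 0.27. Relative to the median of all genes, which by construction cancels settings that shift every gene alike, Il1b lay between -0.27 and -0.20 and Il1rap between 0.61 and 1.76. Of 77 single values, 52 moved by less than the spot error and 25 by more, and Il1b and Il1rn changed sign, to 0.0017 and 0.02, with spike-in scaling.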

Other observations

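A list of 12 inflammatory genes that NF-κB drives together with Il1b was read beside it. Of these, 11 had a probe and 10 were detected on either array, with 2 past 2-fold upward and 0 downward. Over all genes detected on either array the shares were 3.06% and 3.35%. The 8 measured on both arrays had a median log2 difference of 0.35 and 6 were higher, while Il1b had -0.29. Named after their values were seen, the 2 that were lower, Ptgs2 and Nos2, had -0.11 and -0.06. Ccl4, a chemokine for monocytes and T cells, had 1217 untreated and 3580 after IL-4, a difference of 1.46. Il6, a cytokine of the acute phase response, had 65.6 and 150, or 2.14-fold, but was under 2-fold with normexp. Nfkbia, the inhibitor that NF-κB induces against itself and the brightest of the list, had 0.41, and Ccl3 had 0.28. Across the other settings the number past 2-fold upward ran from 1, with normexp, to 4, with quantile normalization or the authors' processed values.

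Genes of neutrophils, a cell type that carries Il1b and Il1r2 transcripts, were present on both arrays. All 7 with a probe were well above background on both, 1 was higher, and their differences ran from -0.93, for Retnlg, to 0.30, for Mpo, with a median of -0.23. Their summed scaled level after IL-4, most of it from S100a9 and S100a8 at -0.10 and -0.17, was 0.899 times that of untreated cells. Lymphocyte genes were mostly not detected, with 2 of 8 well above background on both arrays.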
